A study of Mus musculus with 8 samples.

Results

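The 10 melanocyte pigmentation genes Tyr, Tyrp1, Dct, Pmel, Mlana, Oca2, Slc45a2, Slc24a5, Mc1r and Mitf were taken from the deposited table of 18901 genes by their symbols, and all 10 were present. Whole cheek skin was sequenced from 8 mice, with 1 library for each of the 4 TBX20fl/fl;K14-Cre mice and each of the 4 TBX20fl/fl littermates. All 8 were 7-week-old females that carried floxed Tbx20 alleles on a C57BL/6 background and received 10 µg of BNP, a peptide that evokes scratching, in the shaved left cheek. Their skin was taken 5 h after a 30 min recording of behaviour. In TBX20fl/fl;K14-Cre mice, Cre driven by the keratin 14 promoter removes exons 2 and 3 of Tbx20 in keratinocytes, whereas the TBX20fl/fl controls lack Cre. Melanocytes are not keratinocytes, and most of the 10 genes are known chiefly from this other cell type of the skin.

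In the hair-bearing skin of mice, most pigment is made by melanocytes that lie in the hair follicles, and they make it while the hair grows. MITF is the transcription factor that switches on much of the pigment programme, and the receptor MC1R raises its activity through cyclic AMP. The enzymes tyrosinase, TYRP1 and DCT then make melanin on fibrils of PMEL inside melanosomes, whose acidity and ion content are set by transporters such as OCA2, SLC45A2 and SLC24A5.

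The sequences before the start sites of these genes are shown because MITF is known to bind the M-box, an E-box with an added T, and because cyclic AMP acts on Mitf through a site of its own. The table of RefSeq start sites used here (GRCm38.p6) matched 7 of the 10 genes, with no entry for Pmel, Mlana and Slc45a2. Among the 6 of these other than Mitf, 5 held TCATGTG on either strand within 250 bases before the start, compared with 3.25% of 32851 annotated starts. The shorter CATGTG, which TCATGTG contains, was present in 6 of 6 and before 12.3% of all starts. None of the 3 annotated starts of Mitf held either motif. The 3rd of them, at the short melanocyte form of the gene, held TGACGTCA 153 bases before the start, a motif found before 1.55% of all starts. A match describes the letters only and is not a measurement of binding. The 250 bases before the start of the 3 enzyme genes and of this Mitf start are given 5′ to 3′ on the strand of the gene, with the motif in capitals. They lie at chr7:87493513-87493762 (Tyr, minus strand), chr4:80833963-80834212 (Tyrp1, plus strand), chr14:118052247-118052496 (Dct, minus strand) and chr6:97991533-97991782 (Mitf, plus strand).
Tyr: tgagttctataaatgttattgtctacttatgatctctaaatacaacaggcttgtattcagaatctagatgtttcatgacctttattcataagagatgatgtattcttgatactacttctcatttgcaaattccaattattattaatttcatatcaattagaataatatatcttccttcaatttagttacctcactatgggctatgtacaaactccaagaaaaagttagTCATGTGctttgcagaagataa
Tyrp1: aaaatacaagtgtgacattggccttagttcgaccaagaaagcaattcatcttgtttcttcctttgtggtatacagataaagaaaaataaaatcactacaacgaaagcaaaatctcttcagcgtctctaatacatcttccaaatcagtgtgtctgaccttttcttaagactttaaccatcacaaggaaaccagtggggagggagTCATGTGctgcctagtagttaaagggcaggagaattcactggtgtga
Dct: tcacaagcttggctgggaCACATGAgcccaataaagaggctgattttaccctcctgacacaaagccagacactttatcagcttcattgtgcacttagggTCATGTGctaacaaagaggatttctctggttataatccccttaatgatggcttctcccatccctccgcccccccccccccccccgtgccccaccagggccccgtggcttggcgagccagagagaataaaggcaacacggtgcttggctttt
Mitf: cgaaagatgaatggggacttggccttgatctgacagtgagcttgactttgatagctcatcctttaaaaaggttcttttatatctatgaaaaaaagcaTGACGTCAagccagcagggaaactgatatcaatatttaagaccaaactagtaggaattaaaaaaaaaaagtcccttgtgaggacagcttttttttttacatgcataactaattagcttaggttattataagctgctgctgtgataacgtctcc
The match lay 22 bases before the start in Tyr and 47 in Tyrp1, and Dct held 1 match at 151 and another, on the opposite strand, at 232. For Tyrp1 this holds for the RefSeq start only. The GENCODE M21 annotation starts Tyrp1 at chr4:80834123, inside the window shown, and the match lies after that start. Mc1r had its match 52 bases before the start and Slc24a5 at 13 on the opposite strand.

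Each TBX20fl/fl;K14-Cre library held 19260856 to 19880654 estimated counts and each control library 16056282 to 19617762. A level of 3 counts, taken as the lowest number detected, equalled 0.151 to 0.187 CPM (counts scaled to the total of the library). Tbx20 itself reached at most 2.09 estimated counts in any TBX20fl/fl;K14-Cre mouse and 3.01 in any control, so that these counts were too few to show the deletion. TBX20fl/fl replicate 2 stood apart from the other libraries. Its TMM scaling factor was 0.735, against 1.01 to 1.07 elsewhere, and its median rank correlation with the other mice was 0.919, against 0.974 to 0.990. At an adjusted p under 0.05 (edgeR, Benjamini-Hochberg), 0 of 17124 tested genes were called (0%, smallest adjusted p = 0.498). An unadjusted p under 0.05 was found for 1431 genes, 8.36% of those tested, with 2.45% higher and 5.91% lower in the TBX20fl/fl;K14-Cre group. DESeq2's Wald test called 10 genes and limma on FPKM called 0.

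None of the 10 pigmentation genes was called, and 0 of 10 had an unadjusted p under 0.05. Their fitted log2 fold changes were all above 0, from 0.18 for Mitf to 3.11 for Oca2, with a median of 1.39 against 0.026 for all genes tested. The folds were at least 1 in 9 of the 10, as in 2.56% of all genes tested. Apart from that of Mitf, these values rested largely on TBX20fl/fl;K14-Cre replicate 2. It held the highest FPKM of the 8 mice for 9 of the 10 genes, all but Mitf, and for 20.5% of all genes tested. In each of the 9 it was more than 2 times the next mouse, which was so for 2.35% of tested genes. Without it the median log2 fold change of the 10 genes was 0.022, against 0.012 for all genes. With replicate numbers as blocks, the median was 0.76, the folds ran from 0.20 for Mitf to 2.27 for Oca2, and again 0 of the 10 were called (edgeR adjusted p = 0.405 to 0.684). In that fit 1 of 10, Slc45a2, had an unadjusted p under 0.05 (log2 fold change 1.63, SE 0.466), a share close to that of all genes in the same fit (1723 of 17124). In whole skin, fewer (or more) melanocytes and less (or more) RNA per melanocyte cannot be told apart.

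**Figure D1:**
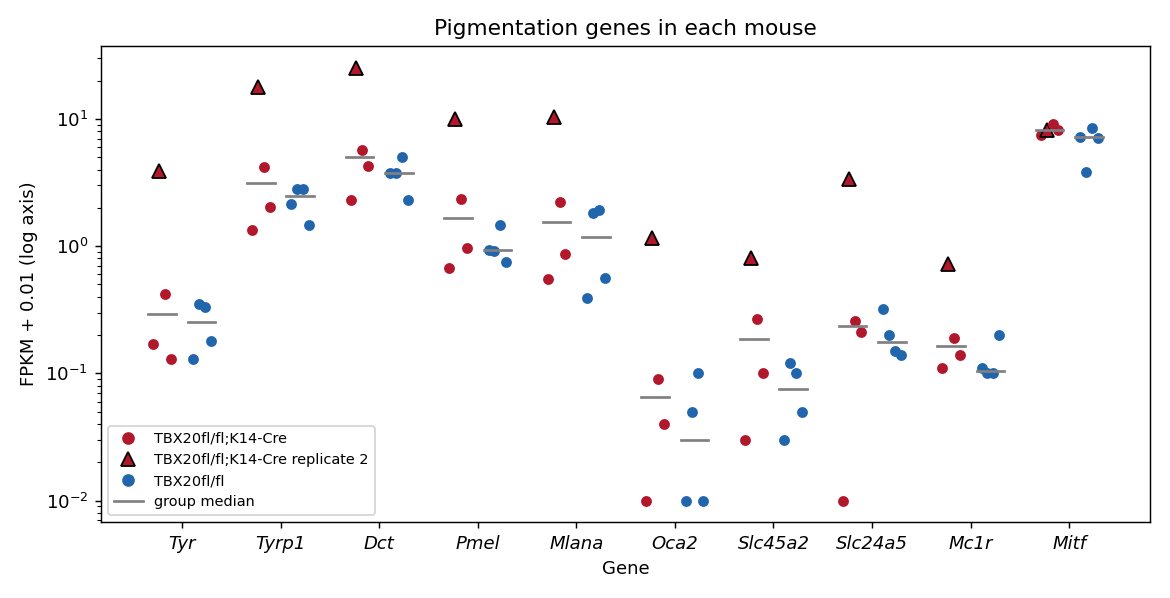
FPKM of each pigmentation gene (log axis, after adding 0.01) in the 4 TBX20fl/fl;K14-Cre mice (red) and the 4 TBX20fl/fl mice (blue), with grey lines for the group medians. The triangle, TBX20fl/fl;K14-Cre replicate 2, stands above all other mice for every gene but Mitf.

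Tyr (chr7:87424771-87493512, GRCm38 as deposited) encodes tyrosinase, which carries out the first steps of melanin synthesis. Its estimated counts were 18.5, 331.49, 40.45 and 13.82 in replicates 1 to 4 of the TBX20fl/fl;K14-Cre mice, and in the TBX20fl/fl controls, in the same order, they were 13.65, 26.55, 36.41 and 18.68. Replicate 2 of the TBX20fl/fl;K14-Cre mice was thus far above the rest, and the other 3 lay within or close to the range of the controls. In FPKM, which is scaled for transcript length, Tyr was 1.15 ± 1.84 in the TBX20fl/fl;K14-Cre group against 0.238 ± 0.109 in controls (mean ± SD, n = 4 each), and the groups overlapped. The edgeR log2 fold change was 1.75 (SE 0.977, adjusted p = 0.499), and its 95% interval ran from -0.45 to 3.95. Without TBX20fl/fl;K14-Cre replicate 2 it was -0.30. Against the other 7 mice pooled, this mouse had 13.2 times the CPM of Tyr, with an exact 95% interval of 11.0 to 16.02 that covers counting error only.

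Tyrp1 (chr4:80801279-80905782) and Dct (chr14:118012790-118052246) encode the enzymes that act on later intermediates of black-brown pigment. Counts of Tyrp1 were 69, 948.82, 222 and 108 in TBX20fl/fl;K14-Cre replicates 1 to 4 and 112, 121, 143.99 and 75.98 in the controls. Dct had the highest FPKM of the 9 genes that peaked in this mouse, and its counts were 92.99, 1107.87, 248.97 and 188.96 against 163, 132.5, 212 and 97. By counts, in both genes replicate 1 of the TBX20fl/fl;K14-Cre mice was below every control, replicate 2 was above all, and replicate 3 was the second highest. Mean FPKM of Tyrp1 was 6.34 ± 7.75 against 2.30 ± 0.643, and that of Dct was 9.41 ± 10.7 against 3.71 ± 1.13 (SD, n = 4 each). The spread between TBX20fl/fl;K14-Cre mice exceeded the difference in both. Their log2 fold changes of 1.25 (SE 0.747) and 1.15 (SE 0.680) both had an edgeR adjusted p of 0.50, and without replicate 2 they were -0.081 and -0.051. That mouse had 7.48 times the pooled CPM of the other 7 for Tyrp1 (95% counting interval 6.81 to 8.21) and 6.55 times for Dct (6.03 to 7.12). The deposited interval of Tyrp1 is wider than its gene in GENCODE M21 (chr4:80834123-80851719). The deposited intervals of other gene models cover the whole of it, among them Zfp984 on the opposite strand with 440 to 728 counts. With intervals this wide, the overlap does not show that these genes lie on Tyrp1 or share its reads.

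Pmel encodes the protein that forms the fibrils on which melanin is laid down. Its counts were 27.92, 413.8, 100.98 and 39.81 in TBX20fl/fl;K14-Cre replicates 1 to 4 and 40.59, 30.45, 63.36 and 34.07 in the controls. Replicates 2 and 3 exceeded every control, and replicate 1 was below every control. The FPKM means were 3.47 ± 4.36 and 1.01 ± 0.318 (SD, n = 4 each), and the log2 fold change of 1.54 (SE 0.765, edgeR adjusted p = 0.498) became 0.18 without replicate 2. The ratio of this mouse to the other 7 pooled was 8.25 (95% counting interval 7.12 to 9.55). In the deposited coordinates (chr10:128695888-128720238, GRCm38), Pmel shares 7114 bases with Cdk2 on the opposite strand. In GENCODE M21 Pmel starts further in, at 128704195, and how much of the shared stretch lies in that gene was not measured. Cdk2 had 172 to 526.93 counts, the highest also in TBX20fl/fl;K14-Cre replicate 2. Whether the counting used strand is not given in the sources used here, and reads of the shared stretch cannot be told apart.

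Mlana (chr19:29697541-29708447) encodes MART-1, a small melanosomal membrane protein that binds PMEL. It had 7, 112, 22 and 11 counts in TBX20fl/fl;K14-Cre replicates 1 to 4 against 5, 19, 20 and 7 in the controls. Each TBX20fl/fl;K14-Cre mouse was above the control of the same replicate number in FPKM, although for replicates 1, 3 and 4 these differences were of a few counts. Mean FPKM was 3.51 ± 4.68 against 1.17 ± 0.813 (SD, n = 4 each). The log2 fold change of 1.21 (SE 0.909, edgeR adjusted p = 0.523) was -0.28 without replicate 2, which had 8.26 times the pooled CPM of the other 7 mice (95% counting interval 6.21 to 11.0).

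The 3 transporter genes had few counts in every mouse but TBX20fl/fl;K14-Cre replicate 2. They lie at chr7:56239593-56536518 (Oca2), chr15:11000721-11029233 (Slc45a2) and chr2:125068127-125088677 (Slc24a5). Oca2, which encodes a melanosomal chloride channel, had 0, 70, 5 and 2 counts in TBX20fl/fl;K14-Cre replicates 1 to 4 and 0, 2, 5 and 0 in the controls. Slc45a2, a melanosomal transporter, had 1, 46, 15 and 5 counts against 1, 5, 5 and 2. Slc24a5, a potassium-dependent sodium-calcium exchanger, had 0, 125.35, 9.43 and 7.42 against 11.53, 5.72, 4.89 and 4.64. Outside replicate 2 the counts were at most 15, and several libraries lay at or under the floor of 3 counts. For Oca2 the other 7 mice had 14 counts together, and the ratio of replicate 2 to them was 33.6 with a 95% counting interval of 18.7 to 64.5. The ratio was 9.08 (5.70 to 14.6) for Slc45a2 and 19.1 (13.4 to 27.5) for Slc24a5.

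In FPKM, Oca2 was 0.315 ± 0.558 in the TBX20fl/fl;K14-Cre group and 0.0325 ± 0.0427 in controls, Slc45a2 was 0.290 ± 0.348 and 0.065 ± 0.042, and Slc24a5 was 0.948 ± 1.60 and 0.193 ± 0.0826 (SD, n = 4 each). All 3 SDs of the TBX20fl/fl;K14-Cre mice exceeded their means. The log2 fold changes were 3.11 (SE 1.55) for Oca2, 2.02 (SE 1.01) for Slc45a2 and 2.06 (SE 1.22) for Slc24a5, with edgeR adjusted p-values of 0.498, 0.498 and 0.50. Without replicate 2 they were 0.15, 0.79 and -0.63. The fold of Slc45a2 was then the largest of the 10 genes, and its 95% interval ran from -1.23 to 2.81. Slc24a5 overlaps 7703 bases of Myef2 on the opposite strand, and Myef2 had 162 to 429.53 counts, again with the highest in TBX20fl/fl;K14-Cre replicate 2.

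Mc1r (chr8:123407082-123410744) encodes the melanocortin 1 receptor, which turns pigment synthesis towards black-brown melanin when bound by its peptide hormone. Its counts were 6.83, 51.69, 12.96 and 9.25 in TBX20fl/fl;K14-Cre replicates 1 to 4 and 7.16, 5.05, 6.45 and 13.09 in the controls. Replicate 2 was the highest, whereas replicates 1, 3 and 4 lay inside the range of the controls. FPKM was 0.283 ± 0.294 against 0.118 ± 0.0486 (SD, n = 4 each). The log2 fold change was 1.14 (SE 0.659, edgeR adjusted p = 0.499) and 0.095 without replicate 2, whose CPM was 5.72 times that of the other 7 mice pooled (95% counting interval 3.88 to 8.42). All of its counts were fractional, as when reads are divided between gene models. The same was so for Pmel and Tyr, and for 69.0% of the counts above 0 over all genes.

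Mitf (chr6:97807002-98021360), the regulator of the pigment genes, did not share their pattern. Its counts were 666.83, 751, 837.99 and 769.16 in TBX20fl/fl;K14-Cre replicates 1 to 4 and 651.97, 277.89, 752.99 and 647 in the controls. The low value was that of TBX20fl/fl replicate 2, the library that stood apart, and the highest was TBX20fl/fl;K14-Cre replicate 3. FPKM was 8.21 ± 0.702 against 6.67 ± 2.01 in controls (SD, n = 4 each), and the groups overlapped. The log2 fold change was 0.18 (SE 0.168, edgeR adjusted p = 0.565, 95% interval -0.19 to 0.56). Without TBX20fl/fl replicate 2 it was 0.066, and the difference in mean FPKM went from 1.54 to 0.588. It turned to -0.063 with an offset that takes out each library's trend by transcript length. TBX20fl/fl;K14-Cre replicate 2 had 1.09 times the CPM of Mitf in the other 7 mice (95% counting interval 1.01 to 1.18). That pool includes TBX20fl/fl replicate 2, at 17.3 CPM. The 38.0 CPM of TBX20fl/fl;K14-Cre replicate 2 lay within the 33.2 to 42.6 CPM of the remaining mice. Mitf is also made outside melanocytes from other start sites, and the deposited value sums all of its forms, including that of the melanocyte start.

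The order of the genes by FPKM, a level per transcript length, also set this mouse apart. Among controls Mitf led, followed by Dct, Tyrp1, Mlana, Pmel, Tyr, Slc24a5, Mc1r, Slc45a2 and Oca2 by their means. The ranges of neighbours in that order overlapped over the 4 controls, except those of Pmel (0.74 to 1.47 FPKM) and Tyr (0.12 to 0.34 FPKM). Within each control, Mitf was also above Dct, Dct above Tyrp1 and Tyrp1 above Mlana. In TBX20fl/fl;K14-Cre replicate 2, Dct (25.33 FPKM), Tyrp1 (17.81), Mlana (10.44) and Pmel (9.91) all exceeded Mitf (8.12).

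**Figure D2:**
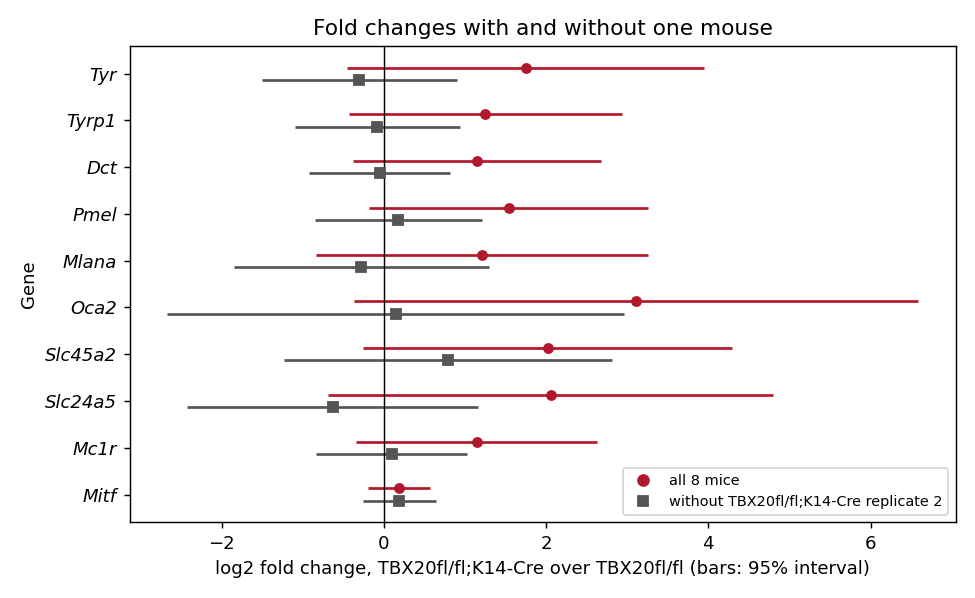
Fitted log2 fold change of each pigmentation gene (TBX20fl/fl;K14-Cre over TBX20fl/fl) with its 95% interval in edgeR's quasi-likelihood fit, over all 8 mice (red circles) and without TBX20fl/fl;K14-Cre replicate 2 (grey squares). Every interval includes 0, and the median moves from 1.39 to 0.022.

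Exact permutation tests of the difference in mean FPKM between the genotypes, two-sided over the 70 assignments of 8 mice, gave p from 0.229 for Mitf to 0.714 for Slc24a5, where the smallest p this design allows is 0.0286. The FPKM ranges of the genotypes overlapped for all 10 genes. Over all genes tested, 5.19% lay wholly higher and 1.87% wholly lower in TBX20fl/fl;K14-Cre mice. When mice were matched by replicate number, the TBX20fl/fl;K14-Cre mouse had the higher FPKM in 4 of 4 matches for Mlana and Mitf, in 3 of 4 for Pmel, Tyr, Tyrp1, Dct, Slc45a2 and Slc24a5, and in 2 of 4 for Oca2 and Mc1r. A sign-flip permutation test over 4 matches cannot give a p below 0.125.

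Summed over the 8 genes whose products act in the melanosome (Tyr, Tyrp1, Dct, Pmel, Mlana, Oca2, Slc45a2 and Slc24a5), the level was 160 CPM in TBX20fl/fl;K14-Cre replicate 2. The other 7 mice ranged from 11.2 to 33.7 CPM with a median of 18.9. This 1 mouse held 54.1% of all counts of the 8 genes. The means were 55.9 ± 69.8 CPM in the TBX20fl/fl;K14-Cre group and 19.3 ± 5.66 CPM in controls (SD, n = 4 each), and 21.3 ± 11.4 CPM in the 3 TBX20fl/fl;K14-Cre mice without replicate 2. The next highest mouse was TBX20fl/fl;K14-Cre replicate 3, at 33.7 CPM. It was second in FPKM for 6 of the 10 genes and highest for Mitf, and had 2.46 times the pooled CPM of the remaining 6 mice for Pmel and 2.02 times for Tyrp1. The ratio was 4.53 for Slc45a2 (95% counting interval 2.14 to 9.41) and 3.19 for Oca2 (0.839 to 10.6), and 1.28 to 1.83 for the other 6 genes. The lowest was also a TBX20fl/fl;K14-Cre mouse, replicate 1, and the mice of this genotype thus spanned the whole range.

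The 8 melanosomal genes moved together from mouse to mouse. As a description, with no test, Pearson's r of log2 CPM over the 8 mice was 0.78 to 0.98 in their 28 pairs (median 0.95). Without TBX20fl/fl;K14-Cre replicate 2 it was 0.22 to 0.93 (median 0.81), with the lowest value between Slc24a5 and Tyr. Mc1r followed them much less without that mouse, with r of 0.75 to 0.87 in its 8 pairs with these genes over all mice and -0.10 to 0.38 without it. In the 9 pairs that include Mitf it was at most 0.28 (median 0.15). The mice share tissue and platform, and 1 mouse weighs heavily in each value.

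Other genes of the pigment cell were taken from lists by function, and none of their members was called. Of 26 genes for melanosome biogenesis and transport, 14 had a log2 fold change above 0 and 12 below, with a median of 0.080 that was 0.014 without TBX20fl/fl replicate 2, whose mean log2 CPM for the list was the lowest (4.11, against 4.39 to 4.55). These genes serve lysosome-related organelles in many cell types, and in TBX20fl/fl;K14-Cre replicate 2 their median deviation from the other 7 mice was -0.0092 on the log2 CPM scale. The 4 with the smallest unadjusted p were Rab32 (log2 fold change -0.36), Cd63 (-0.67), Dtnbp1 (-0.39) and Hps4 (0.42), all with an edgeR adjusted p of 0.498. Among the 26, 3 had their highest log2 CPM in TBX20fl/fl;K14-Cre replicate 2, against 15.2% of all genes tested. Gpr143, which encodes a receptor of the melanosome membrane largely limited to pigment cells, was the 1 more than 2-fold above the next mouse, against 1.94% of all genes. It had 15 counts in this mouse and at most 2 in any other, and as it passed the filter on low counts only through this mouse, that rank was set by the filter and no fold could be fitted without it.

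Of 20 lineage factors and signals, 19 were measured, and Asip was absent from the table. The log2 fold change was above 0 in 17 and below 0 in 2, with a median of 0.31, whereas 8987 of all 17124 genes tested were above 0. The median was 0.34 without TBX20fl/fl;K14-Cre replicate 2. TBX20fl/fl replicate 2, the library that stood apart, had the lowest mean log2 CPM for this list (3.15, against 3.78 to 4.17 in the other mice), and without it the median was 0.16, with 16 of 19 above 0. Unadjusted p-values under 0.05 were found for 2 of 19, both higher in TBX20fl/fl;K14-Cre mice, against 2.45% of all genes in that direction, and for 4 of 19 without TBX20fl/fl replicate 2, against 544 of all 17058 genes in that fit. The 2 were Lef1 (log2 fold change 2.24, and 1.20 without TBX20fl/fl;K14-Cre replicate 2) and Tfap2a (0.52), and Ednrb (0.46) and Tfap2b (0.48) came next, each with an edgeR adjusted p of 0.498. Lef1 encodes a WNT effector used in hair matrix as well as in melanocytes. Its FPKM was 4.24 in TBX20fl/fl;K14-Cre replicate 2 and 0.22 to 1.18 in the other 7.

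In TBX20fl/fl;K14-Cre replicate 2, 7 of the 19 lineage genes had their highest log2 CPM, against 15.2% of all genes tested, and only Lef1 was more than 2-fold above the next mouse. The other 6 were Tfap2a, Tfap2b, Creb1, Ednrb, Edn1 and Notch1, of which Creb1, Edn1 and Notch1 were named after their values were seen. Several receptors, ligands and factors were not at their highest there. Sox10, a lineage factor shared with Schwann cells, was 2.17 FPKM in TBX20fl/fl;K14-Cre replicate 2 and 1.26 to 3.39 FPKM in the other mice. Kit, the receptor that melanoblasts need and that mast cells also carry, was 4.11 FPKM in that mouse and 1.14 to 4.68 elsewhere. Its ligand gene Kitl was 16.93 against 11.23 to 17.67, and the endothelin gene Edn3 was 0.86 against 0.52 to 0.93. The endothelin receptor gene Ednrb was highest in this mouse, at 35.51 FPKM against 14.34 to 30.19. Pomc, which encodes the precursor of the MC1R ligand, was 0.48 against 0.16 to 0.39 FPKM, but on the TMM-scaled log2 CPM scale it was not the highest. Of these 6 genes, the log2 fold changes between genotypes ran from -0.46 for Pomc to 0.46 for Ednrb.

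Of 12 other melanocyte-enriched genes, 11 passed the filter and Abcb5 did not. Their median log2 fold change was 0.30, and -0.047 without TBX20fl/fl;K14-Cre replicate 2. In this mouse 6 of 11 had their highest log2 CPM, and 5 of 11 were more than 2-fold above the next mouse, against 15.2% and 1.94% of all genes tested. The 5 were Trpm1, Tspan10, Syt4, Mcoln3 and Slc24a4, the last of which was named after its values were seen. Slc24a4 had 16.99 counts in this mouse and at most 2 in any other, and it passed the filter on low counts only through this mouse, so that its place among the 5 was set by the filter. Trpm1, an ion channel gene known from melanocytes and retina, was 5.72 FPKM in this mouse and 0.24 to 0.69 in the rest. Tspan10 (0.85 against at most 0.13), Syt4 (1.66 against at most 0.16) and Mcoln3 (2.23 against at most 0.70) showed the same order. The log2 fold changes of these 4 genes were 1.80, 2.46, 2.11 and 0.80, and their edgeR adjusted p-values were 0.498 to 0.502. Without this mouse the folds were 0.023 for Trpm1, 0.68 for Tspan10, -0.10 for Syt4 and -0.0020 for Mcoln3.

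**Figure D3:**
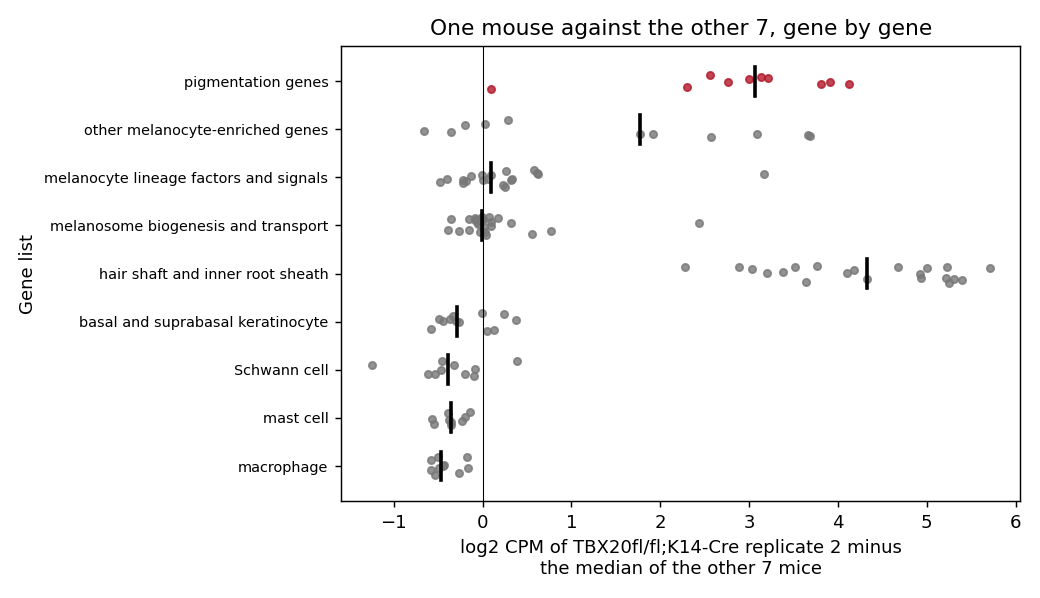
Difference in log2 CPM between TBX20fl/fl;K14-Cre replicate 2 and the median of the other 7 mice, with 1 point per gene, the pigmentation genes in red and a black bar at the median of each list. The medians are 3.07 for the pigmentation genes, of which Mitf alone lies near 0, 4.32 for hair shaft and inner root sheath genes, 1.77 for other melanocyte-enriched genes, -0.0092 for melanosome biogenesis genes, of which Gpr143 lies at 2.44, and -0.28 for keratinocyte genes.

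Markers of the growing hair were highest in the same mouse. Of 22 hair shaft and inner root sheath genes 21 were measured, and all 21 had their highest log2 CPM in TBX20fl/fl;K14-Cre replicate 2, 18 of them more than 2-fold above the next mouse. Over all genes tested these shares were 15.2% and 1.94%. The mean log2 CPM of the list was 6.53 in that mouse and 0.40 to 3.93 in the other 7, again with TBX20fl/fl;K14-Cre replicate 3 as the next. By genotype it was 1.67 to 6.53 with K14-Cre and 0.40 to 3.36 in controls. None of its genes was called between genotypes, with 12 of 21 higher in the K14-Cre group at an unadjusted p under 0.05, against 2.45% of all genes tested, and a median log2 fold change of 2.34 that was 0.53 without replicate 2. Krt71, an inner root sheath keratin, was 530 FPKM in replicate 2 and 3.75 to 76.9 FPKM in the others. The part of hair growth in the values of the pigmentation genes was not tested.

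Lists for other cells did not peak in this mouse. Of 12 basal and suprabasal keratinocyte genes 1 was highest there, against 15.2% of all genes tested. The mean log2 CPM of that list was 8.73 in this mouse and 8.59 to 9.02 in the other 7. Of 10 Schwann cell genes 1 was highest there. The deviation of the list medians in this mouse was -0.28 for keratinocyte, -0.39 for Schwann cell, -0.36 for mast cell, -0.47 for macrophage, -0.51 for skeletal muscle, -0.065 for adipocyte and -0.43 for neutrophil genes on the log2 CPM scale. No gene of the mast cell, macrophage, skeletal muscle or neutrophil lists had its highest value in it. The mean log2 CPM of the mast cell list was 4.85 to 5.09 with K14-Cre and 5.40 to 6.07 in controls, and 0 of its 9 measured genes were called. At an unadjusted p under 0.05, 6 of these 9 were lower with K14-Cre, against 5.91% of all genes tested. Their median log2 fold change was -0.75, and -0.37 without TBX20fl/fl replicate 2. The neutrophil list was 3.06 to 4.45 with K14-Cre and 4.46 to 5.68 in controls, with 7 of 10 lower at an unadjusted p under 0.05 and 0 called.

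**Figure D4:**
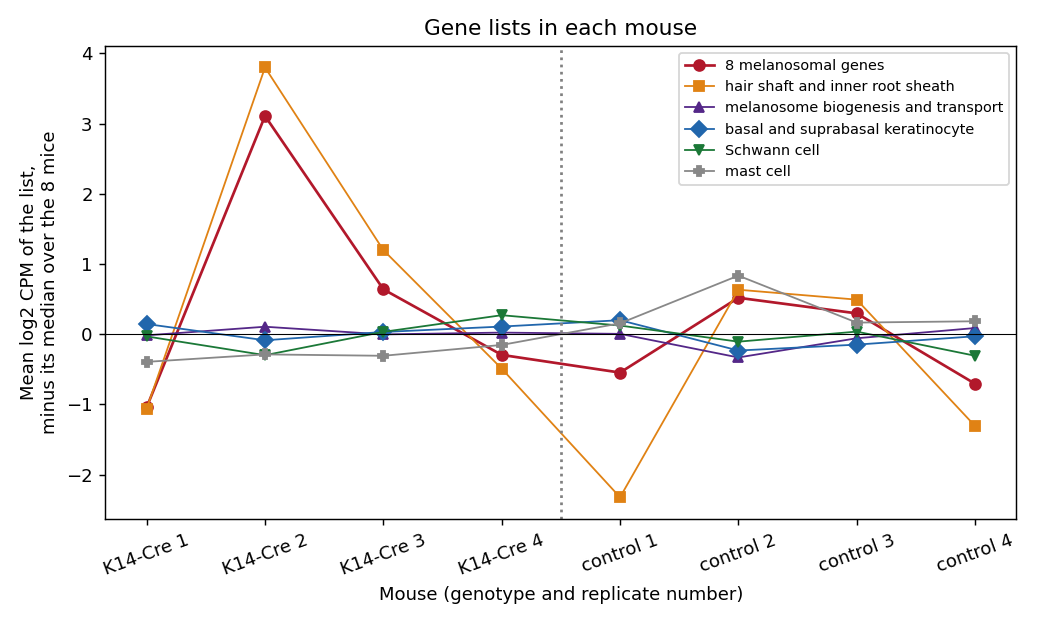
Mean log2 CPM of 6 gene lists in each mouse, after subtracting the median of each list over the 8 mice. The 8 melanosomal genes (red) and the hair shaft and inner root sheath genes (orange) peak together in TBX20fl/fl;K14-Cre replicate 2. The other 4 lists drawn (melanosome biogenesis and transport, keratinocyte, Schwann cell and mast cell) stay within 1 log2 unit of their median. The remaining lists are not drawn.

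Among all genes other than the 10, listed or not, those whose log2 CPM followed the mean of the 8 melanosomal genes most closely over the 8 mice were, by Pearson's r among 13293 genes compared, Trpm1 (0.99), Bambi (0.98), Crym (0.97), Tmem119 (0.97), Igfbp4 (0.97), Lbr (0.97), Mycn (0.96), Tchh (0.96), Tmem98 (0.96) and Hoxc13 (0.95). These values describe 8 mice and carry no test. Trpm1 is from the melanocyte-enriched list and Tchh and Hoxc13 are from the hair list. Trpm1 was the closest over all mice. Without TBX20fl/fl;K14-Cre replicate 2 the closest gene was Mfap2, and Trpm1 was ranked 2 (r = 0.98) and Bambi 10. The genes of the hair list were then ranked 38 (Tchh, r = 0.87) and 183 (Hoxc13, r = 0.77). Tchh, which encodes trichohyalin of the inner root sheath, was 201 FPKM in replicate 2 and 3.34 to 31.2 in the other mice. Crym rose from at most 6.98 FPKM in the other mice to 51.9 FPKM in it, and Bambi from at most 5.25 to 25.3.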

How the data were processed

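Per the authors' methods, total RNA of whole cheek skin was selected by poly(A), sequenced as single-end 50-base reads, filtered with SOAPnuke and aligned with HISAT. The counting program and its use of strand are not given in the sources used here. The authors deposited 1 table on GRCm38 coordinates with estimated counts (expected counts, not normalized, 69.0% of those above 0 not whole) and FPKM values for 18901 genes in each mouse. The authors' TPM values, size-factor normalized counts, 40 columns of group means, and the log2 fold changes, p-values and q-values of 17 comparisons were not used.

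Counts were rounded, genes summing to fewer than 10 counts across all libraries were dropped (17124 remained), and the genotypes were compared with edgeR 4.0.16 (R 4.3.3; TMM, quasi-likelihood test, Benjamini-Hochberg adjustment over all genes, threshold 0.05). All 10 pigmentation genes passed the filter. FPKM was compared with exact permutation tests (scipy 1.17.1). The 3-count floor and the counting intervals (exact, 95%) cover counting error only. Log2 CPM values were TMM-scaled, and CPM ratios and sums used library totals. Alternatives were other scalings, filters, a transcript length offset, DESeq2 1.42.0, limma 3.58.1, the replicate block and leaving out each mouse.

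The genes, lists and tests were chosen with earlier results of these data known. From the melanosome, lineage and melanocyte-enriched lists the text names the 4 genes with the smallest p and a fixed set of receptors and factors. Also named are the 10 genes most like the pigmentation genes by correlation. Creb1, Edn1, Notch1, Slc24a4 and Mfap2 were added after their values were seen. The promoter motifs and the ratios of TBX20fl/fl;K14-Cre replicate 2 to the other mice were chosen after values had been seen. Replicate numbers come from the labels. Mice with the same number deviated together (r = 0.40, 0.32, 0.33 and 0.16 over 13298 genes), and the numbers were used as a block in an alternative. Mice with different numbers had r of -0.52 to 0.43, and 3 of these 12 pairs were above the lowest value for a shared number. The mice are different animals, and nothing in the labels says what a number marks. The edgeR, DESeq2 and limma fits were also run on simulated counts as a check of the code, and no result here rests on that.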

Additional observations from a re-analysis of the deposited data

Results flagged for a closer look

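A value was singled out where it lay far from the other 3 mice of its genotype by Dixon's criterion, which chance meets in about 1 of 20 groups. Over the 10 genes and both genotypes, 7 of 20 groups met it, 6 of them through the same mouse. All 10 genes were measured in the same mice, so the groups are not independent. The count therefore cannot be set against that rate. In TBX20fl/fl;K14-Cre mice the value far from the rest was that of replicate 2 for Tyr (3.90 FPKM), Dct (25.33 FPKM), Mlana (10.44 FPKM), Oca2 (1.15 FPKM), Slc24a5 (3.34 FPKM) and Mc1r (0.72 FPKM). For Pmel, Tyrp1 and Slc45a2 replicate 2 was also the highest mouse, but the gap to replicate 3 was too small a share of the range. In controls it was the Mc1r value of TBX20fl/fl replicate 4 (0.19 FPKM), which rests on 13.09 estimated counts against 5.05 to 7.16 in the other 3 controls.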

How the results depend on the processing

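TBX20fl/fl;K14-Cre replicate 2 decided the size of the fold changes, except that of Mitf, which was 0.18 with it and 0.19 without it. Leaving out each mouse in turn, the median log2 fold change of the 10 genes was 0.022 to 1.73, with the lowest value when that mouse was left out, and 0 genes were called throughout (0 to 0). The folds of 5 genes then turned negative, and the range over the 8 mice left out was -0.30 to 2.11 for Tyr, -0.081 to 1.59 for Tyrp1, -0.051 to 1.48 for Dct, -0.28 to 1.72 for Mlana and -0.63 to 2.47 for Slc24a5. The difference in mean FPKM turned negative without it for Tyr (-0.0075 to 1.25) and Slc24a5 (-0.0425 to 1.07). Mitf was -0.063 with the length trend removed and -0.055 with the length trend removed and the replicate block. With the replicate block alone the median was 0.76 and 0 genes were called, so the block changed no call. DESeq2's Wald test called 10 genes over the whole table, none of them a pigmentation gene, with an adjusted p of 0.417 to 0.582 for the 7 that had one and NA for the other 3. The median was 0.46 with limma on log2(FPKM + 1) and 0.81 on log2(FPKM + 0.1). Of 186 alternative fits of single pigmentation genes, 179 kept their direction and 0 passed the threshold (edgeR, DESeq2 and limma adjusted p 0.358 to 0.951). edgeR's own expression filter kept only 6 of the 10 genes. Oca2, Slc45a2, Slc24a5, Mc1r and Mlana rest on few counts (14 to 91 summed over the other 7 mice) outside replicate 2, and depth limits any smaller difference.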
